A study of Mus musculus with 12 samples.

Results

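Oviducts of the mouse at metestrus, the stage that follows ovulation, were compared with oviducts at estrus, the stage in which the newly ovulated eggs lie in the tube. The comparison used the 3 arrays labelled metestrus and the 3 labelled estrus, 6 of the 12 arrays of a series that also holds 3 at proestrus and 3 at diestrus. All of them held total RNA of whole oviduct from ICR mice, an outbred stock, at 6 weeks of age. The labels name no treatment or altered allele, so the stage of the cycle is the only difference they give between the groups. The question put by this step of the cycle is which transcripts of the tube rise or fall once ovulation is over.

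The oviduct carries eggs, sperm and the early embryo in a fluid that its secretory cells release and that its ciliated cells and smooth muscle move. Estradiol from growing follicles peaks before ovulation and drives growth and secretion of the epithelium, and progesterone from the corpus luteum follows after ovulation. Eggs leave the ovary wrapped in cumulus cells, which are granulosa cells of the follicle, and the whole complex enters the tube. Whole oviduct can therefore hold transcripts of these cells beside its own.

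RNA was read on a 1-colour Illumina bead array, on which each probe gives a fluorescence intensity and a detection p-value. Levels are log2 normalized intensities, differences are metestrus minus estrus on the log2 scale, and errors are standard errors of a limma fit to all 12 arrays, with n = 3 arrays per stage throughout. A gene was called when its Benjamini-Hochberg adjusted p was under 0.05. Where a gene was undetected on all 3 arrays of a stage, its fold is a lower bound, written as at least N-fold, against the lowest signals that the arrays of that stage detected. No bound was set for a gene undetected on only 1 or 2 arrays of a stage, and its difference rests in part on background signal. The arrays numbered 1 form a set of their own, with a median raw intensity of 139 to 156 against 99.3 to 105 on the others. Metestrus replicate 1 stood furthest from its group: the SD of its log2 difference from metestrus replicates 2 and 3 was 0.54 and 0.55 over the 5072 genes of higher mean, against 0.12 between those replicates. Nothing in the labels tells whether arrays 1, 2 and 3 came from different mice, and the tests therefore see no more than the scatter among these arrays, part of which may be technical. In whole tissue, a smaller number of cells of a type and less RNA per cell cannot be told apart.

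The defining markers of oviduct were present. The secretory cell genes Ovgp1, Pax8 and Wfdc2, the ciliated cell genes Foxj1, Tekt1, Rsph1 and Dnah5 and the muscle genes Acta2, Myh11, Des and Actg2 were detected on all 6 arrays. None of these 11 genes was called, and their differences lay between -0.07 and 0.41. Acta2 had the same mean, 15.80, at both stages, near the top of the measured range. Quantile normalization can make such top values equal, so the values of Acta2 cannot tell whether its level changed. The adipocyte markers Plin1 and Retn and the egg coat gene Zp2 were not detected on any of the 6 arrays, whereas Adipoq, Cidec, the mesothelial genes Msln, Upk3b and Lrrn4 and the neutrophil genes S100a8 and S100a9 were detected on all of them.

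Of the 10144 genes tested, 250 were called, 2.46% of them. The fall was the larger side: 180 genes (1.77%) were lower at metestrus and 70 (0.69%) were higher. Falls were also deeper, with a median of -1.13 over the lower genes against 0.75 over the higher ones, and 108 genes fell by more than 2-fold where 15 rose by more than 2-fold. More than 4-fold lay 23 falls and 3 rises. The median of all genes tested was 0.02. An unadjusted limma p under 0.05 was found for 1233 of the 10144 genes, against which list counts at that level are to be read. In each of the 250 genes the 3 metestrus arrays did not overlap the 3 estrus arrays, which was also so for 1801 of all genes tested.

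The called genes were placed in the cycle by their means at the other stages, which enter no test here. Of the 180 lower genes, 114 had their highest mean at estrus and 65 at proestrus, and 108 had their lowest mean at metestrus and 49 at diestrus. Of the 70 higher genes, 62 had their highest mean at metestrus and 8 at diestrus, and their lowest mean was at proestrus for 41 and at estrus for 29.

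A fit that added the replicate number as a block called 847 genes (8.35% of those tested), 372 higher (3.67%) and 475 lower (4.68%), and the 250 were all among them. Each count with the replicate block below is to be read against these shares. Leaving out 1 array gave 147 to 247 calls, of which 32 to 73 were higher and 115 to 180 lower. The rises were cut by over 1.5 times without estrus replicate 1 (42), 2 (32) or 3 (36) or metestrus replicate 2 (39) or 3 (43), and the falls without estrus replicate 2 (115) or 3 (116). Of the 250 calls, 134 held whichever array was left out. In the paragraphs below a call held in all of these fits unless an array is named beside it. Of 104 called genes chosen for description by the rule given under processing, 70 were lost with the values as the authors had deposited them, without a block, and 48 in a fit to the estrus and metestrus arrays alone.

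**Figure D1:**
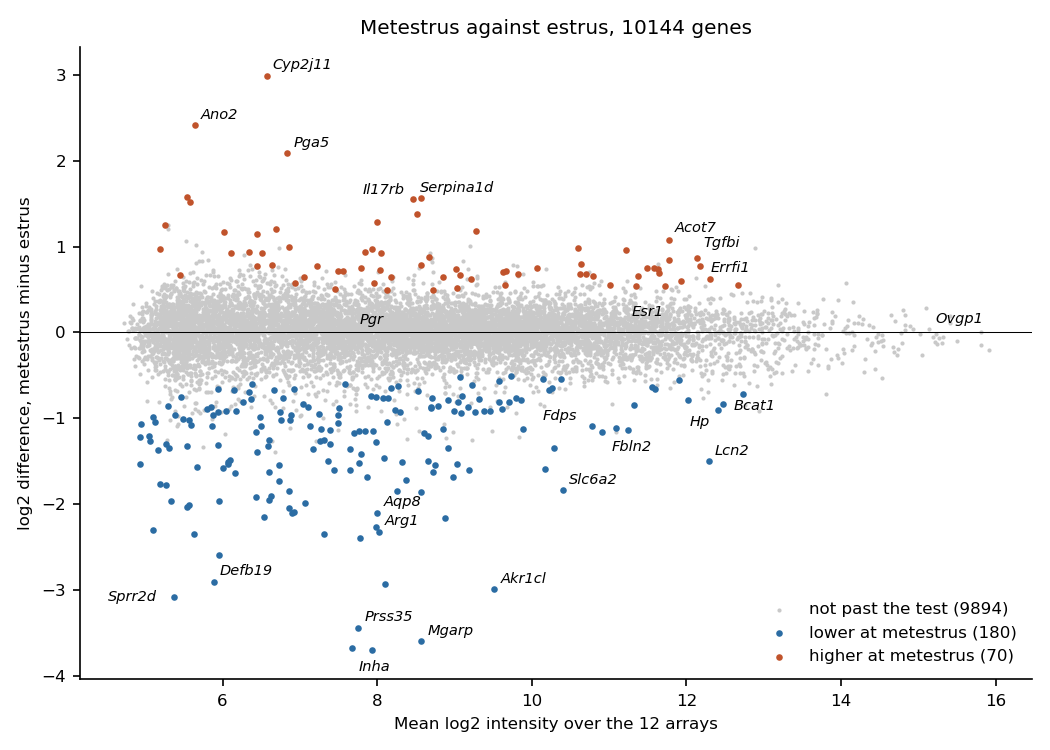
Log2 difference, metestrus minus estrus, of the 10144 genes tested (vertical axis) against the mean log2 intensity over 12 arrays (horizontal axis), with the 180 lower genes in blue, the 70 higher genes in orange and the others in grey. The falls reach below -3 and the rises reach 2.99 (Cyp2j11), while Esr1, Pgr and Ovgp1 lie near 0.

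The deepest falls included genes of the follicle and the egg. Of 15 tested genes of granulosa, theca and luteal cells, 11 were lower and none higher, where 1.77% of all genes were lower, and their median was -1.60. Of 19 tested genes of the oocyte, out of 36 on the array, 10 were lower and none higher, with a median of -1.18, or -1.01 with undetected genes at their bound. Both lists were written with results of these data known, and their members passed a detection filter to which estrus arrays contributed. Without that filter the median was -1.27 for the granulosa, theca and luteal list and -0.36 for the oocyte list. Cyp19a1 and Lhcgr, other defining genes of granulosa and luteal cells, were not found on the array by name.

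Inha encodes the alpha subunit of inhibin, the granulosa cell hormone that restrains follicle-stimulating hormone. Its level was 9.98, 10.004 and 10.18 on the estrus arrays and 5.91, 6.45 and 6.69 on the metestrus arrays. The groups were far apart, a difference of -3.70 ± 0.20 or 13.02-fold (limma, adjusted p = 1.23e-06). Inhba, whose product joins inhibin or forms activin, lay at 7.70, 7.91 and 7.93 at estrus and at 5.28, 5.75 and 6.22 at metestrus, 4.29-fold lower (adjusted p = 0.000235 by limma). At proestrus its mean was 8.03, close to that of estrus, whereas that of Inha was 8.24.

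Enzymes of steroid synthesis were among them. Hsd17b1, which converts estrone to estradiol in granulosa cells, was at 9.62, 9.94 and 9.87 at estrus and at 5.66, 6.35 and 6.40 at metestrus, 12.8-fold lower. Cyp11a1, the side-chain cleavage enzyme that starts steroid synthesis, was at 8.73, 8.70 and 8.70 against 6.43, 6.86 and 6.88, a fall of 3.97-fold. All arrays of one stage lay above all of the other for both genes (limma adjusted p = 1.73e-05 and 6.46e-06). Mgarp, a mitochondrial protein of steroid-making cells, was 12.1-fold lower, from 11.23, 10.96 and 11.18 to 7.26, 7.71 and 7.61. Hsd3b1 and the receptors Fshr and Nr5a2 had no detected probe at metestrus. Nr5a2, a nuclear receptor of granulosa and luteal cells, was at least 3.75-fold lower, but its other probe gave a difference of -0.25. Amhr2, the receptor of anti-Müllerian hormone, fell by 1.60 ± 0.15 with other probes at -1.15 and -0.68, and Cyp17a1, the theca enzyme that makes androgens, by 1.39 ± 0.27, the latter not called when metestrus replicate 1, estrus replicate 2 or estrus replicate 3 was omitted (adjusted p 0.0527 to 0.082 by limma). Star, which carries cholesterol into mitochondria, was not called (-0.69, adjusted p = 0.17).

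Among the egg genes, Gdf9 and Bmp15 encode the growth factors by which the oocyte directs its cumulus cells. Gdf9 lay at 8.53, 9.13 and 9.03 at estrus and at 5.82, 6.97 and 6.84 at metestrus, 5.11-fold lower (SE 0.33, limma adjusted p = 0.00239). Bmp15 was at 6.76, 6.88 and 6.98 at estrus and undetected on all metestrus arrays, at least 2.51-fold lower. Neither gene overlapped between stages. Ooep, Padi6 and Nlrp5 belong to the complex under the egg's membrane that the early embryo needs. Ooep fell by 2.09 ± 0.27, Padi6 fell by 2.15 ± 0.32 and Nlrp5 fell by 1.73 ± 0.32, the last lost without estrus replicate 2 or 3 (adjusted p 0.0607 to 0.0672 by limma). Nlrp14 was 4.13-fold lower, and Bcl2l10, an apoptosis regulator of the egg, was at 6.20, 5.92 and 6.06 at estrus and undetected at metestrus. Zp3, of the zona pellucida, did not pass (-1.18, adjusted p = 0.103, or 0.00263 with the replicate block).

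Summed levels place these lists in the cycle. Summed over its 19 members, the oocyte list had a level of 2839, 3435 and 3536 intensity units at estrus and of 1120, 1300.5 and 1266 at metestrus, with 975 to 1268 at proestrus and 1602 to 1943 at diestrus. The follicle list summed to 9896, 9148 and 10001 at estrus, 2978, 2942 and 3071 at metestrus, 3479 to 3821 at proestrus and 2521 to 2790 at diestrus. The oocyte sum at metestrus overlapped that at proestrus and lay below that at diestrus, while the follicle sum at metestrus lay above that at diestrus. No test was made of the stages outside the comparison. The part of eggs, cumulus or ovarian tissue in the falls of these lists, or in any other fall described here, was not tested.

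**Figure D2:**
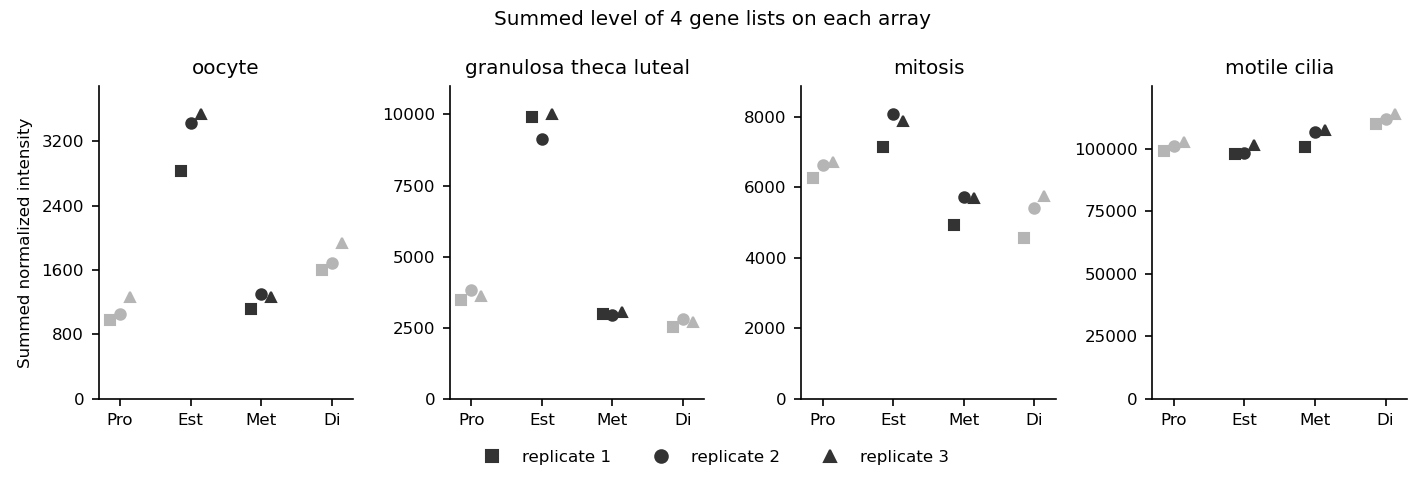
Summed normalized intensity (vertical axes, from 0) of the tested members of 4 gene lists on each of the 12 arrays, by stage (Pro, Est, Met, Di), with replicate 1 as squares, 2 as circles and 3 as triangles and the compared stages in black. The oocyte and follicle sums at estrus (2839 to 3536 and 9148 to 10001) stand above every other array, the mitosis sum at metestrus (4918 to 5725) lies below that at estrus (7131 to 8063), and the motile cilia sums lie close together.

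Genes of the cumulus matrix, which hyaluronan binders build around the egg before ovulation, were listed separately. Of 9 tested, Edn2 fell and Rgs2 rose, and the median was 0.07. With the replicate block 2 were lower and 1 higher. Edn2 encodes endothelin 2, a peptide that contracts smooth muscle and that granulosa cells release at ovulation. It lay at 8.43, 8.61 and 8.73 at estrus and at 6.70, 6.97 and 7.06 at metestrus, 3.21-fold lower (limma adjusted p = 0.000117), with a proestrus mean of 8.99. Rgs2, a brake on G protein signals, rose by 0.57 ± 0.13. Its call was lost without any array other than proestrus replicate 3 (adjusted p 0.0534 to 0.20 by limma over 11 such fits).

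Several secreted proteases and protease-like proteins were lower. Prss35, a serine protease homologue known from ovarian follicles, lay at 10.51, 10.23 and 10.32 at estrus and at 6.98, 6.74 and 7.03 at metestrus, close to its proestrus mean of 6.98. The difference was 10.8-fold (SE 0.18, limma adjusted p = 1.23e-06). Prss29, a tryptase-like protease of the uterine gland, fell from 8.78, 9.15 and 9.31 to 6.498, 7.47 and 7.71. Adamts4, which cuts the proteoglycans of the cumulus coat and other matrix, fell by 1.25 ± 0.13 and Htra1 by 0.54 ± 0.11. The Htra1 call was lost without estrus replicate 1, 2 or 3 or metestrus replicate 2 or 3 (adjusted p 0.059 to 0.103 by limma). Of 50 proteases tested, 6 were lower and 1 higher with a median of 0.00, or 8 lower and 3 higher with the replicate block. Leaving out estrus replicate 2 or 3 brought the lower count down to as few as 3.

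Defence proteins formed the next group of falls. Of 27 tested antimicrobial and acute phase genes, 7 were lower and none higher, with a median of -0.56, and with the replicate block 12 were lower and 1 higher. Without estrus replicate 2 or 3 the lower count fell to as few as 3. Without the detection filter the median was -0.16. Lcn2, whose product binds bacterial siderophores and which estrogen induces in the mouse uterus, was among the brightest genes to fall, from 13.01, 13.16 and 13.02 to 11.16, 11.79 and 11.74. The 2 stages did not overlap, with a fall of 2.83-fold (limma adjusted p = 0.000292). Defb19, a beta-defensin, lay at 7.62, 8.17 and 7.99 at estrus and was undetected at metestrus, at least 5.20-fold lower. Slpi, an inhibitor of neutrophil elastase with antibacterial action, was at 8.42, 8.65 and 8.57 against 6.33, 7.29 and 7.46, 2.87-fold lower.

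Haptoglobin (Hp), which binds free haemoglobin, was at 12.51, 12.83 and 12.95 at estrus and at 11.72, 11.97 and 11.91 at metestrus. It fell by 0.90 ± 0.16 on the log2 scale, a call lost without estrus replicate 2 or 3 (adjusted p 0.0627 to 0.0637 by limma). Chil1, a chitinase-like protein, fell by 1.48 ± 0.28, also lost without estrus replicate 2 or 3 (0.0672 to 0.0718). The other members called were S100a9 and Camp, which neutrophils store. S100a9 fell by 1.28 ± 0.27 and was lost without any 1 of the estrus arrays (adjusted p 0.0726 to 0.112 by limma), and Camp fell by 0.92 ± 0.20 and was lost without any of 7 arrays (0.0557 to 0.162). Neutrophil markers were read beside these genes: of 15 tested, those 2 were lower and none higher, or 4 lower with the replicate block, with a median of -0.28, or 0.04 without metestrus replicate 1. S100a8 (-1.14, adjusted p = 0.0878, or 0.0328 with the replicate block) and Ngp (-0.56, adjusted p = 0.281) did not pass, and the list's summed level was 30798 to 34484 at estrus and 31219 to 33163 at metestrus. That sum is set by its brightest members and need not follow neutrophil markers. The mast cell and eosinophil list gave similar sums, 28732 to 32413 at estrus and 30521 to 31788 at metestrus. The part of neutrophils in the falls of Lcn2, Slpi or Hp was not tested.

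Of 13 genes of the cornified envelope and stratified keratins tested, 4 were lower and none higher (median -0.46), or 5 lower and 1 higher with the replicate block. Without the detection filter the median was -0.12. The Sprr2 genes encode small proline-rich proteins that estrogen induces in the mouse uterus, and they are near-identical, so probes may share signal. Sprr2f was at 10.19, 9.69 and 9.55 at estrus and at 6.30, 7.14 and 7.19 at metestrus, 7.63-fold lower (limma adjusted p = 0.000184). Sprr2d lay at 7.17, 7.95 and 7.83 at estrus and was undetected at metestrus, at least 4.30-fold lower, and Sprr2g fell by 1.92 ± 0.25. On metestrus replicates 1 and 2 Sprr2g, at 5.10 and 5.54, lay below the lowest signals those arrays detected. Both groups of arrays were apart in all 3 genes, but Sprr2a1, another member, gave -0.11 (adjusted p = 0.931). Cdsn, an adhesion protein of cornified cells, fell 3.60-fold, from 7.45, 7.85 and 7.86 to 5.60, 5.94 and 6.07. Its mean at proestrus, 7.94, was close to that at estrus, whereas Sprr2d was at 4.60 there.

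Genes that move ions and water changed in both directions. Of 39 genes of bicarbonate, chloride, sodium and water transport tested, 6 were lower and 1 higher (median -0.11), or 8 lower and 6 higher with the replicate block and 3 higher without metestrus replicate 1. Aqp8, a water channel, was at 8.60, 8.88 and 8.85 at estrus and at 6.67, 6.72 and 6.65 at metestrus, 4.29-fold lower (limma adjusted p = 2.6e-06). Its mean was 9.82 at proestrus and 6.73 at diestrus. Aqp5, a water channel of gland cells, fell less, from 9.81, 9.87 and 9.95 to 8.84, 8.96 and 9.09, with no overlap.

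Slc26a4 exchanges chloride for bicarbonate or iodide. It fell from 7.63, 7.68 and 7.79 to 5.73, 6.68 and 6.06, 2.91-fold (limma adjusted p = 0.00541). Clca1, a secreted protein that modulates chloride channels, was at 6.21, 7.39 and 7.25 at estrus and undetected at metestrus, at least 2.65-fold lower. Ano2, a calcium-gated chloride channel, went the other way. It was undetected at estrus, at 4.58, 4.60 and 4.74, and lay at 6.77, 7.08 and 7.30 at metestrus, at least 2.87-fold higher (limma adjusted p = 2.6e-06). The carbonic anhydrase genes, a family taken by symbol after its values were seen, had 3 lower of 10 tested, or 5 with the replicate block. The 3 were Car9 (-1.09), Car12 (-1.46) and Car14 (-0.76). Omitting estrus replicate 2 or 3 or metestrus replicate 1 or 3 ended the Car12 call (adjusted p 0.0511 to 0.0998 by limma), and omitting estrus replicate 2 or 3 or metestrus replicate 2 that of Car14 (0.065 to 0.082).

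Carriers of small solutes split likewise. Slc6a2, which takes up noradrenaline, lay at 11.27, 11.12 and 11.13 at estrus and at 9.18, 9.43 and 9.41 at metestrus, 3.56-fold lower (limma adjusted p = 4.72e-06), and its other probes gave -1.02 and -0.80. Its level at proestrus, 11.28 on average, matched that at estrus. Slc38a5, a carrier of glutamine and other amino acids, fell 5.25-fold, from 8.79, 9.28 and 9.34 to 6.496, 6.88 and 6.85. Slc5a11, which carries inositol with sodium, rose from 5.28, 4.59 and 5.37 to 6.45, 6.67 and 6.67, by 1.52 ± 0.24. On estrus replicates 2 and 3 it lay below the lowest signals those arrays detected, 5.67 and 5.68, so background limits the size of its rise. Of 32 carriers tested Slc6a2, Slc38a5 and Slc5a11 were called, and the median of the list was 0.02.

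Of 25 genes of steroid receptors and metabolism tested, 6 were lower and none higher (median -0.15): Hsd17b1, Hsd17b7, Hsd17b2, Akr1cl, Akr1c18 and Esr2. Omitting estrus replicate 2 or 3 ended the calls of Hsd17b2 (adjusted p 0.0555 to 0.07 by limma) and Hsd17b7 (0.0595 to 0.0602), and the lower count was 4 to 6 when 1 array was omitted. Akr1cl, an aldo-keto reductase, was at 11.70, 11.53 and 11.69 at estrus and at 8.47, 8.74 and 8.76 at metestrus, 7.92-fold lower (limma adjusted p = 5.46e-07), or -1.98 by its other probe. Akr1c18, which inactivates progesterone, was at 11.16, 10.69 and 10.85 against 9.02, 8.99 and 9.10, 3.63-fold lower. Its means at the outer stages were lower still, 6.996 at proestrus and 7.34 at diestrus, where those of Akr1cl were 9.32 and 8.44. Outside this list, Arg1, the arginase that competes with nitric oxide synthase for arginine, fell from 9.22, 8.97 and 8.84 to 6.64, 6.65 and 6.79, 4.99-fold (limma adjusted p = 2.6e-06), after a proestrus mean of 9.71. Gulo, which completes vitamin C synthesis, fell 3.29-fold, from 9.09, 8.99 and 8.92 to 7.40, 7.16 and 7.29.

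Of the steroid receptors, the estrogen receptor beta gene Esr2, which granulosa cells express strongly, was at 6.87, 7.01 and 6.75 at estrus and undetected at metestrus, at least 2.52-fold lower (limma adjusted p = 0.000292). Esr1, the estrogen receptor alpha gene of the oviduct's own cells, was at 11.34, 11.18 and 10.997 at estrus and at 11.75, 11.06 and 11.08 at metestrus. Pgr, the progesterone receptor gene, was at 7.72, 7.72 and 7.95 against 7.89, 7.63 and 7.80. The stages overlapped for both, with differences of 0.12 ± 0.20 and -0.03 ± 0.14 (limma adjusted p = 0.905 and 0.98).

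Responses to the hormones were read from lists of genes that estrogen, or progesterone and glucocorticoids, induce in reproductive tract. Of 22 estrogen-induced genes tested, 4 were lower and none higher: Lcn2, Aqp5, Clca1 and Padi2, an enzyme that citrullinates proteins. Padi2 fell from 7.61, 7.77 and 7.98 to 6.47, 6.93 and 6.56, 2.20-fold (limma adjusted p = 0.00226), after 8.65 at proestrus. The median of the list was -0.07, and with the replicate block 5 were lower and 2 higher. Sprr2d, Sprr2f and Sprr2g, described above, were counted with the cornified genes and not in this list.

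Of 23 progesterone and glucocorticoid induced genes tested, 5 were higher and 1, the activin-binding protein gene Fst, was lower, with a median of 0.09. With the replicate block 6 were higher and 3 lower. Tsc22d3, a glucocorticoid-induced regulator, was at 11.27, 11.25 and 11.22 at estrus and at 12.11, 11.95 and 11.90 at metestrus, and stayed at 12.06 at diestrus (limma adjusted p = 0.00326). Il13ra2, a decoy receptor of interleukin 13, rose by 1.17 ± 0.22, Gata2, a transcription factor that acts with the progesterone receptor in mouse uterus, by 0.66 ± 0.13, and Cdkn1c, a cell cycle inhibitor, by 0.66 ± 0.14. Errfi1, which restrains the epidermal growth factor receptor, rose by 0.77 ± 0.18. The count of higher genes was 2 to 4 when 1 array was left out, and fell by over 1.5 times without any of the 6 estrus and metestrus arrays. Il13ra2 was lost without estrus replicate 1 or 2 or metestrus replicate 3 (adjusted p 0.0564 to 0.0667 by limma). Gata2 was lost without replicate 2 or 3 of either stage (0.05 to 0.104) and Cdkn1c without estrus replicate 1 or 3 or any metestrus replicate (0.0557 to 0.0857). Errfi1 was lost without any array but estrus replicate 1 and metestrus replicate 3 (0.0547 to 0.194).

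**Figure D3:**
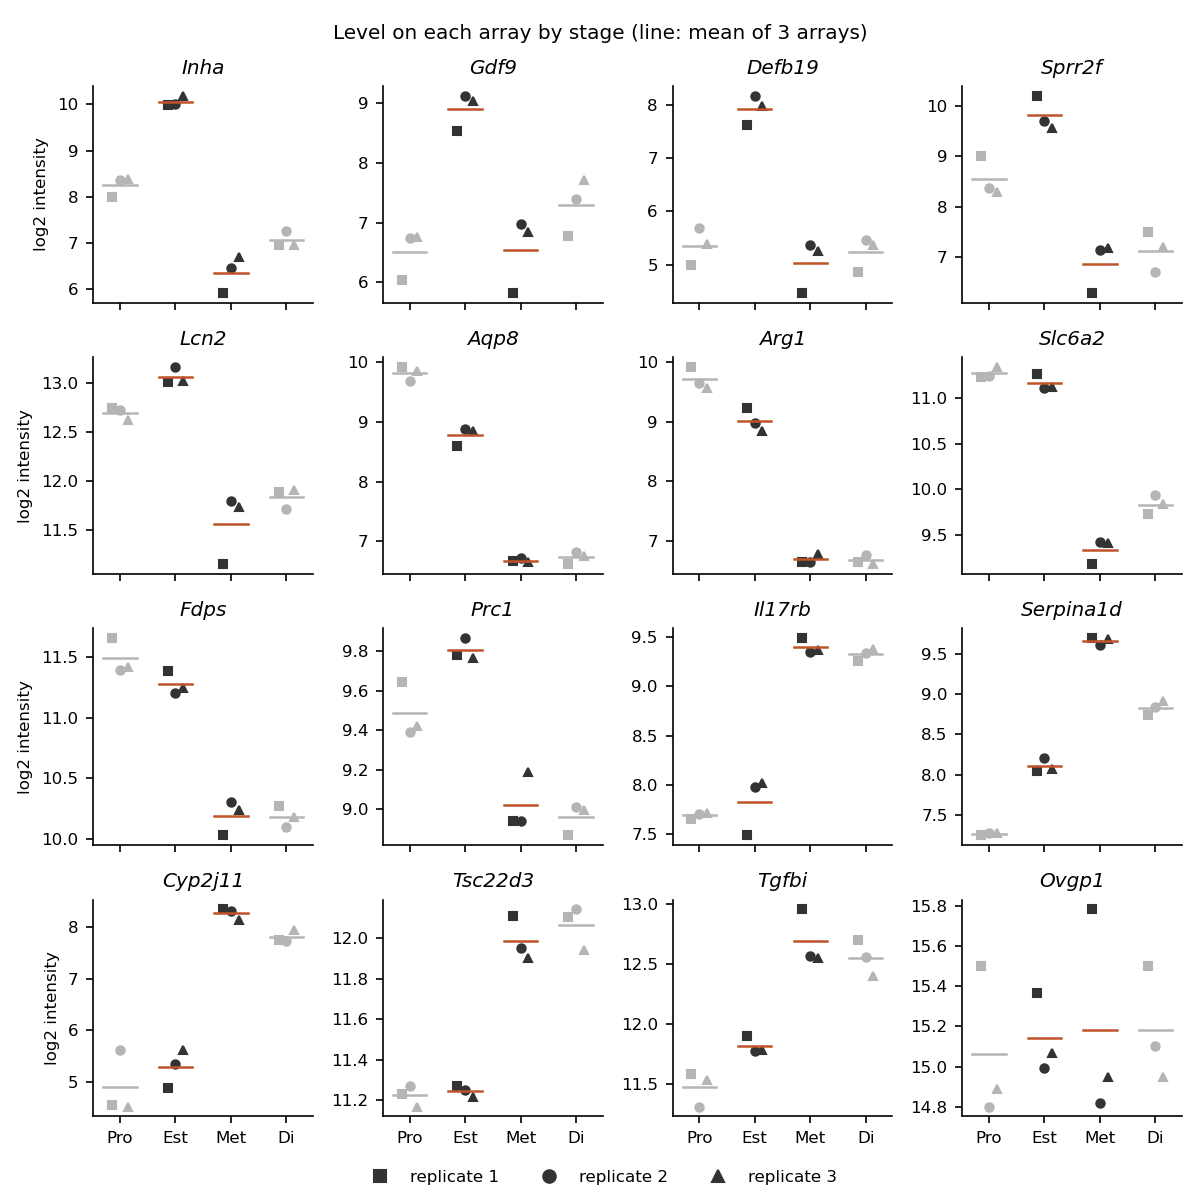
Log2 intensity on each array (vertical axes) of 16 genes by stage, with replicate 1 as squares, 2 as circles and 3 as triangles, a line at the mean of 3 arrays, and proestrus and diestrus in grey. In every panel except Ovgp1 the metestrus arrays do not overlap the estrus arrays. Aqp8, Arg1, Slc6a2 and Fdps have proestrus levels near or above estrus, whereas Defb19 is high at estrus and low at the other 3 stages.

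Of 19 sterol synthesis genes tested, 17 had a negative difference and the median was -0.53, against 0.02 over all genes. The summed level was 16576, 17604 and 17541 at estrus and 13063, 11691 and 11140 at metestrus. Called were Fdps and Hsd17b7, or 10 genes, all lower, with the replicate block. Fdps, which makes farnesyl diphosphate, fell from 11.39, 11.20 and 11.25 to 10.03, 10.31 and 10.23, 2.13-fold (limma adjusted p = 0.00052). Hsd17b7, a reductase of both cholesterol and estradiol synthesis, fell by 0.91 ± 0.17, and its call was lost without estrus replicate 2 or 3, as given above. Srebf2, the factor that switches the pathway on, and Insig1, which holds it back, had differences of -0.55 and -0.60 and did not pass (adjusted p = 0.314 and 0.241, or 0.0155 and 0.0172 with the replicate block).

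Of 20 genes of fatty acid synthesis tested, Me1, which supplies NADPH, and Elovl6, which lengthens fatty acids, were lower, and the median was 0.03. Me1 fell from 9.66, 9.33 and 9.35 to 8.65, 7.99 and 8.19 (limma adjusted p = 0.00354). Elovl6 fell by 0.88 ± 0.19 and was lost without any of 8 arrays (0.0527 to 0.142 by limma), among them all estrus arrays. Fat cell markers lay beside these genes: of 12 tested, Cidec was lower and none higher (median -0.17), and their summed level was 14399 to 14706 at estrus and 12500.4 to 13371 at metestrus. The Cidec call was lost without estrus replicate 1 or 2 or metestrus replicate 2 (adjusted p 0.0594 to 0.104 by limma), and with the replicate block 4 of the 12 were lower. Their part in the falls of Me1 and Elovl6 was not tested.

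Of 37 mitosis genes tested, 6 were lower and none higher, 32 had a negative difference, and the median was -0.45. The median was -0.44, -0.47 and -0.44 by replicate number, and -0.24 without the detection filter. The summed level of the list was 7131, 8063 and 7863 at estrus and 4918, 5725 and 5697 at metestrus, with 6249 to 6716 at proestrus and 4549 to 5750 at diestrus. With the replicate block 18 were lower, and when 1 array was left out the count was 1 to 6, reduced by over 1.5 times without any 1 of the estrus arrays or metestrus replicate 2. Of 31 DNA replication genes tested, Mcm10 was lower and none higher, a share close to that over all genes, with a median of -0.16, and 6 were lower with the block.

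Prc1, which bundles the microtubules of the dividing cell's midzone, lay at 9.78, 9.86 and 9.77 at estrus and at 8.94, 8.94 and 9.19 at metestrus, a fall of 0.78 ± 0.12 (limma adjusted p = 0.00418). Kif15, a motor of the spindle, was at 7.52, 7.29 and 7.75 against 6.49, 6.73 and 6.85, and its call was lost without estrus replicate 3 (adjusted p = 0.0632 by limma). Bub1b, of the spindle checkpoint, was at 6.25, 6.56 and 6.49 against 5.80, 5.64 and 5.21 and was lost without any of 7 arrays (0.0526 to 0.162). On metestrus replicates 2 and 3 Bub1b lay below the lowest signals those arrays detected, 5.68 and 5.81. Kif4, a motor of condensed chromosomes, fell by 0.65 ± 0.13 and was lost without any estrus array or metestrus replicate 1 or 2 (0.0595 to 0.0944). Birc5, the survivin gene of the chromosomal passenger complex, fell by 1.02 ± 0.21 and was lost without any 1 of the estrus arrays (0.0679 to 0.117). Pbk, a mitotic kinase, fell by 0.60 ± 0.13 and was lost without any of 7 arrays (0.0567 to 0.146).

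Genes that peak in late cell cycle share a promoter element, the cell cycle homology region, to which the DREAM and MuvB complexes bind. Its core, TTTGAA on either strand, was searched in the RefSeq promoter windows of GRCm38.p6, which run from 250 bases before to 50 bases after a start site. It stood in 22 of the 31 mitosis genes with a window (71.0%), in 14.3% of the 8216 tested genes with one and in 20.2% of all 27025 genes. Among the called members it stood in 4 of 5. A match is a description of letters, not a bound site. The windows of those 4 genes are printed 5′ to 3′ in the direction of the gene, since they show where the element lies around the start, with each match in capitals.
Prc1 (chr7:80294201-80294500, plus strand): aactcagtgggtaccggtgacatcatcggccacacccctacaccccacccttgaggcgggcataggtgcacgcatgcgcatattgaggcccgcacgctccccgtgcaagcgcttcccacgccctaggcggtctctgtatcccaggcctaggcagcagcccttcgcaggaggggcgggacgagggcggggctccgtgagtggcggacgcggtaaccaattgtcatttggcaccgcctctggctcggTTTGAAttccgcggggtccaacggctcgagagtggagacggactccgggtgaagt
Kif15 (chr9:122950831-122951130, plus strand): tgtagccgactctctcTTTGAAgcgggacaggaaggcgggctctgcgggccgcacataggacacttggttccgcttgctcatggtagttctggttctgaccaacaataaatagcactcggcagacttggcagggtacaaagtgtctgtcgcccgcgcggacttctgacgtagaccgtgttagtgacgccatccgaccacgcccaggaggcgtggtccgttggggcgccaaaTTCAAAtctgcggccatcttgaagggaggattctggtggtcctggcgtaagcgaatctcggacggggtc
Kif4 (chrX:100625815-100626114, plus strand): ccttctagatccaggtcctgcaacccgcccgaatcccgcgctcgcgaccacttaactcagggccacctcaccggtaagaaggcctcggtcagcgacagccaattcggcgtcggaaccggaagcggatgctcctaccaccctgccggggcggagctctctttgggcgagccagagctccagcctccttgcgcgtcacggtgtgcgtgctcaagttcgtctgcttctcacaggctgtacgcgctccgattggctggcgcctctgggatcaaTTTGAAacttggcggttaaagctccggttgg
Bub1b (chr2:118597961-118598260, plus strand): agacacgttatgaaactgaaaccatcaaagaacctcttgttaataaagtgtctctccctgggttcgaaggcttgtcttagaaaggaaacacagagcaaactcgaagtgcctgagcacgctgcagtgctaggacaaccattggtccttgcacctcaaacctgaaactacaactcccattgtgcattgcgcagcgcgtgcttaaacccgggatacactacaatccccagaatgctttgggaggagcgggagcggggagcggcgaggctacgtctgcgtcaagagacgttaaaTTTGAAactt
Counted from the annotated start, the match in Prc1 began at base -5, or at -30 from another annotated start of the gene. In Kif4 and Bub1b it began at 20 and 41, and Kif15 held 2 matches, the first at -234. The CCAAT box, CCAAT on either strand, stood in 19 of the 31 genes (61.3%) against 43.4% of tested genes. The sterol regulatory element TCACNCCAC stood in 1 of 16 sterol genes, Hmgcs1, against 1.42% of tested genes. The palindromic estrogen response element stood in none of 20 estrogen-induced genes and in 0.012% of tested genes, which says only that its letters are not in these windows.

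Of 29 interferon-induced genes tested, 18 had a negative difference, and the median was -0.19. Isg15, a ubiquitin-like protein that interferon induces, was the member called, and 1 of 29 is close to the 2.46% called over all genes. It lay at 8.56, 8.76 and 8.64 at estrus and at 7.21, 8.001 and 7.98 at metestrus, and its diestrus mean was 8.62. The fall of 0.92 ± 0.20 (limma adjusted p = 0.0341) was lost without any of 6 arrays (0.056 to 0.156), among them all estrus arrays. With the replicate block 8 members were lower and 1 higher. The core of the interferon-stimulated response element, searched on either strand, stood in 12 of the 21 members with a window (57.1%) against 3.61% of tested genes. The window of Isg15, with 3 overlapping matches in capitals, is shown because it is the member that passed.
Isg15 (chr4:156200769-156201068, minus strand): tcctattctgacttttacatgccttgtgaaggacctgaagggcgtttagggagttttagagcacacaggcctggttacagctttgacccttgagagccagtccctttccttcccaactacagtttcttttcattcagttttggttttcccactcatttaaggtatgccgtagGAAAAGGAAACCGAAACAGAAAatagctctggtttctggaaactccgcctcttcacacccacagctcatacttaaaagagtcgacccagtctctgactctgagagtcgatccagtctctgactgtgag

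The 70 rises were of genes with a median mean level of 8.57, against 8.31 over all genes tested and 7.61 over the 180 lower genes. Cyp2j11, a cytochrome P450 of the family that forms epoxides of arachidonic acid, was undetected at estrus, at 4.88, 5.35 and 5.62, and lay at 8.35, 8.32 and 8.15 at metestrus. It was at least 6.71-fold higher (limma adjusted p = 8.98e-05), stayed at 7.82 at diestrus, and gave 2.61 by its other probe. Cyp2j13, of the same subfamily, rose from undetected levels of 4.83, 4.68 and 4.64 to 5.43, 5.75 and 5.88. Ephx2, the soluble epoxide hydrolase that clears such epoxides, moved the other way, from 8.98, 8.83 and 8.79 to 7.18, 7.79 and 7.37, 2.68-fold lower (limma adjusted p = 0.00052). Of 24 genes of this list tested, these 3 and Cyp2e1, which fell by 1.13 ± 0.15, were called, or 5 higher and 2 lower with the replicate block.

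Pga5, a pepsinogen, rose from 5.74, 6.28 and 6.38 to 7.56, 8.63 and 8.46, 4.25-fold (limma adjusted p = 0.00156), with 6.90 at diestrus. Il17rb, the receptor of interleukin 25, rose from 7.49, 7.98 and 8.02 to 9.49, 9.34 and 9.37, 2.97-fold, with a diestrus mean of 9.32. Tmem158 rose from 7.83, 7.70 and 7.83 to 9.40, 8.997 and 9.09. No array of either stage overlapped in these genes. Gldc, a glycine-degrading enzyme of mitochondria, had no detected signal on the estrus arrays and lay at 6.12, 6.37 and 6.74 at metestrus, at least 1.84-fold higher.

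Serpina1d and Serpina1b encode alpha-1-antitrypsins, inhibitors of neutrophil elastase, from a cluster of near-identical genes. Serpina1d lay at 8.05, 8.20 and 8.07 at estrus and at 9.70, 9.62 and 9.69 at metestrus, 2.95-fold higher (limma adjusted p = 6.99e-06). Serpina1b rose from 9.33, 9.08 and 9.10 to 10.55, 10.34 and 10.18, a call lost without estrus replicate 2 or 3 (adjusted p 0.0517 to 0.0569 by limma). Serpina1c and Serpina1a had differences of 0.68 and 0.59 and missed the threshold (adjusted p = 0.0517 and 0.0571), and with the replicate block all 4 were higher. Other inhibitors fell: Serpina5, which inhibits protein C and sperm acrosin, by 1.53 ± 0.21, Serpina3n by 0.87 ± 0.15, and Timp1, the inhibitor of metalloproteinases, by 1.60 ± 0.32. Timp1 lay at 9.91, 10.44 and 10.41 at estrus and at 7.76, 9.02 and 9.18 at metestrus, and its call was lost without estrus replicate 2 or 3 (0.091 to 0.0999). Of 24 serpins and inhibitors tested, 3 were higher and 3 lower, or 8 and 4 with the block, and as few as 1 was higher without estrus replicate 2 or 3.

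Rises were also seen in genes of the matrix. Tgfbi, an adhesive matrix protein, rose from 11.90, 11.77 and 11.78 to 12.96, 12.56 and 12.55, 1.83-fold (limma adjusted p = 0.00632), and by 1.13 in its other probe. Mfap4, of elastic fibres, rose from 10.48, 10.39 and 10.57 to 11.09, 11.15 and 11.25, with a diestrus mean of 10.49. Col9a2 rose by 1.21 ± 0.17. Fbln2, of elastic matrix, was lower, from 11.28, 11.64 and 11.63 to 10.28, 10.48 and 10.44 after 12.01 at proestrus, while its other probes gave -0.07 and -1.36. Fbln1, its relative, rose by 0.63 ± 0.12, lost without estrus replicate 1 or 3 or metestrus replicate 3 (adjusted p 0.0632 to 0.0737 by limma). Col4a5, a basement membrane collagen, rose by 0.64 ± 0.13 and was lost without any 1 of the 6 arrays compared (0.0521 to 0.0925). Of 50 matrix genes tested, Mfap4, Fbln1 and Col4a5 were higher and Fbln2 lower (median 0.13), or 7 and 4 with the block. Tgfbi and Col9a2 were not in that list.

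Of 20 Hox genes tested, which set position along the body and the reproductive tract, 3 were higher: Hoxa5 (0.80 ± 0.15), Hoxa2 (0.64 ± 0.13) and Hoxc6 (0.54 ± 0.12). Hoxa5 was at 10.54, 10.32 and 10.36 at estrus and at 10.99, 11.34 and 11.28 at metestrus. None of the 3 calls held in all fits. Hoxa5 was lost without replicate 2 or 3 of either stage (adjusted p 0.0525 to 0.0712 by limma), Hoxa2 without estrus replicate 1 or 2 or metestrus replicate 2 or 3 (0.08 to 0.141), and Hoxc6 without any 1 of the 12 arrays (0.0543 to 0.166). Wnt7a, a Wnt ligand needed for oviduct formation, rose from 7.70, 7.62 and 7.69 to 8.56, 8.30 and 8.32, lost without estrus replicate 2 or 3 (adjusted p 0.0514 to 0.0666 by limma).

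Among other genes, Acot7, a fatty acyl-CoA thioesterase, was the brightest to rise by over 2-fold, from 11.15, 11.45 and 11.57 to 12.09, 12.67 and 12.65. Its probes gave 1.08 to 1.38, and its call was lost without any of 5 arrays, which were all those compared except metestrus replicate 1 (adjusted p 0.0526 to 0.0912 by limma). B3gnt5, which starts the sugar chains of lacto-series glycolipids, rose from 5.81, 6.08 and 6.07 to 7.30, 7.08 and 7.02, 2.21-fold (limma adjusted p = 0.00052). B3gnt7, which extends keratan sulfate chains, fell by 0.96 ± 0.16 from 7.84 at proestrus and 7.19 at estrus to 6.24 at metestrus. Those were the members called of 38 glycosyltransferases tested. With the replicate block 1 was higher and 2 lower, close to the 8.35% of all genes called in that fit.

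Class II histocompatibility genes, through which antigen-presenting cells show peptides, had positive differences throughout. The 8 tested had differences from 0.11 to 0.98 and a median of 0.51, and their summed level was 4725, 5176 and 5269 at estrus and 6019, 7362 and 7737 at metestrus. Cd74, the invariant chain, was the member called, from 10.96, 11.09 and 11.06 to 11.57, 11.46 and 11.69 (0.54 ± 0.11, limma adjusted p = 0.0228). It was lost without any 1 of the estrus arrays or metestrus replicate 3 (0.0773 to 0.0993), while the list had 0 to 3 higher members when 1 array was left out, and 5 with the replicate block. H2-Ea had the largest difference, 0.98 ± 0.25, and did not pass (adjusted p = 0.0716, or 0.00174 with the block). Macrophage and lymphocyte lists had 0 of 12 and 0 of 7 called by limma, with 1 and 0 genes at an unadjusted p under 0.05, and the summed macrophage level was 5806 to 6308 at estrus and 5720 to 6301 at metestrus.

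**Figure D4:**
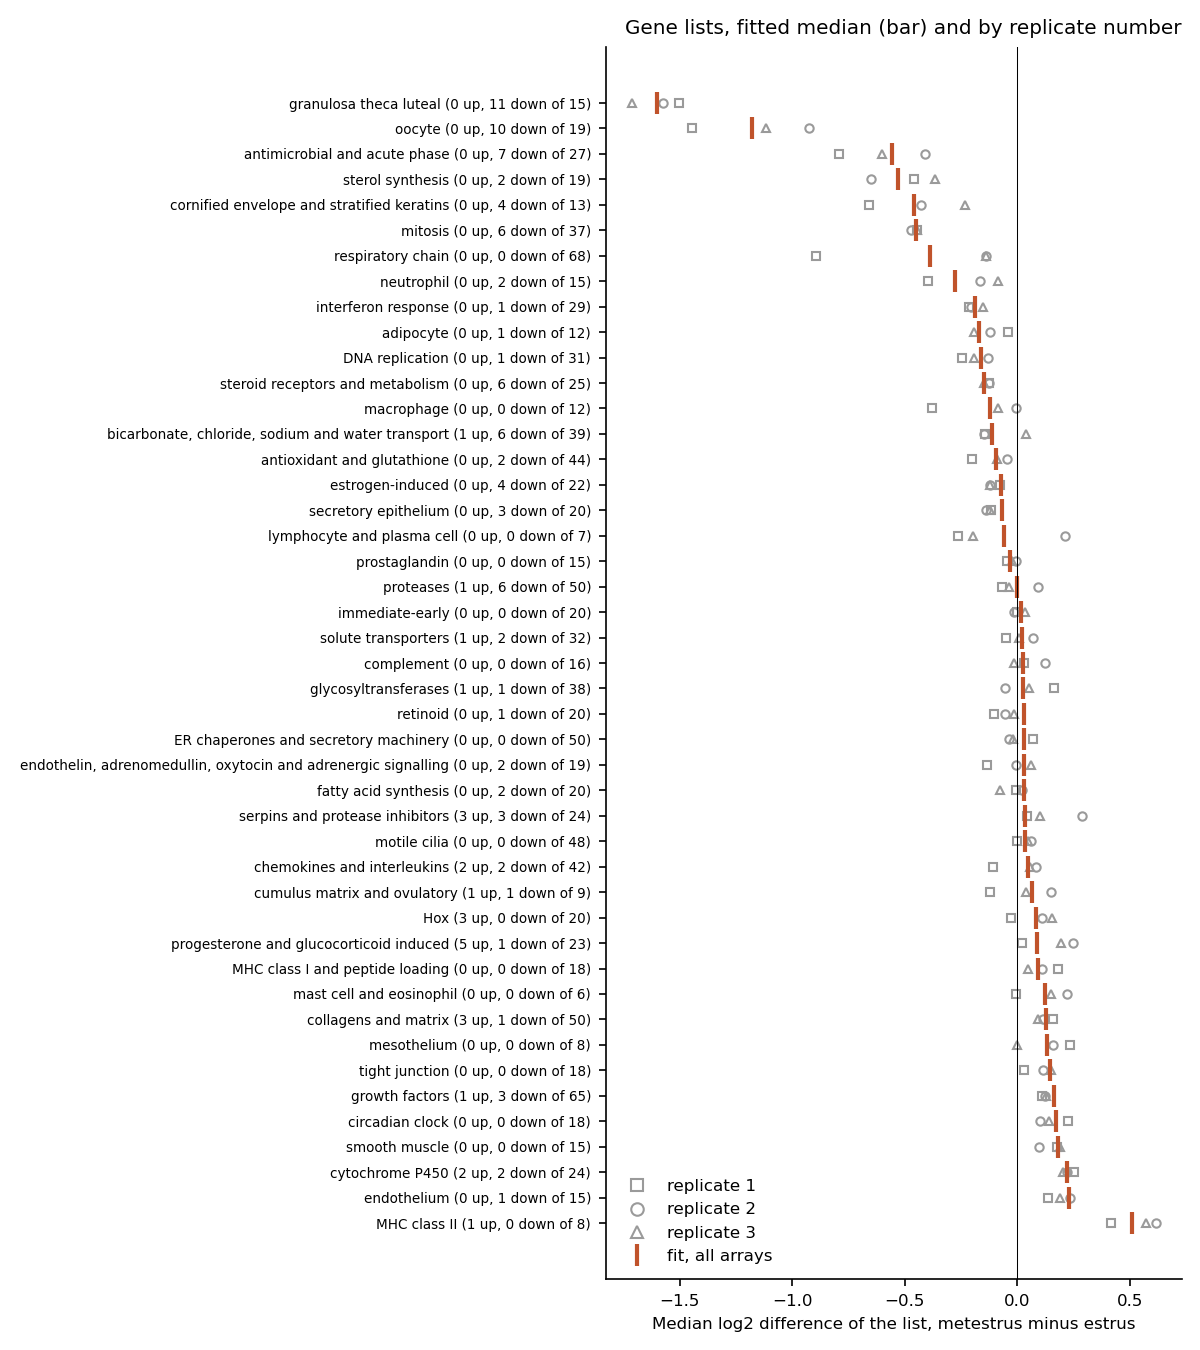
Median log2 difference, metestrus minus estrus, of each gene list with at least 5 tested members (horizontal axis), as fitted over all arrays (bar) and by replicate number (open squares, circles and triangles), with the numbers of members called up and down. The follicle, oocyte, defence, sterol, cornified and mitosis lists lie left of 0 for all 3 replicate numbers, class II genes lie right of 0, and the respiratory chain lies at -0.89 in replicate 1 and at -0.14 in both others.

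Several lists held no called member, which for lists of this length is near the 2.46% called over all genes. Of 48 motile cilia genes tested none was called by limma, 1 had an unadjusted p under 0.05, and the median was 0.03. Their summed level was 97948, 98345 and 101369 at estrus and 100584, 106435 and 107230 at metestrus. Of 50 genes of the endoplasmic reticulum and secretory machinery, none was called and 3 had an unadjusted p under 0.05 (median 0.03). No member was called either in smooth muscle (15 tested, 2 at an unadjusted p under 0.05, median 0.18), complement (16, 3, 0.02) or prostaglandins (15, 4, -0.03). Nor was any called among immediate-early genes (20, 3, 0.02), clock genes (18, 5, 0.17) or tight junctions (18, 3, 0.14). Over all 10144 genes tested, 1233 had an unadjusted p under 0.05 by limma. With the replicate block each of these lists gained calls. In motile cilia 1 gene was higher, in the secretory machinery 2 were higher and 2 lower, in smooth muscle 1 was higher and in complement 2 were higher and 1 lower. Of the others, 2 prostaglandin genes were lower, 1 immediate-early gene was higher and 1 lower, and 3 clock and 3 tight junction genes were higher. In that fit 3.67% of all genes were higher and 4.68% lower. Cldn1, which seals such junctions, lay at 9.32, 8.53 and 8.42 at estrus and at 10.68, 9.39 and 9.23 at metestrus (1.01 ± 0.37, adjusted p = 0.258, or 0.00326 with the block).

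Ovgp1, the gene of oviductin, the main glycoprotein of oviduct fluid, lay at 15.36, 14.99 and 15.07 at estrus and at 15.78, 14.82 and 14.95 at metestrus. The stages overlapped, with a difference of 0.04 ± 0.27 (limma adjusted p = 0.982), near the top of the measured range. Of 20 genes of the secretory epithelium tested, 3 were lower and none higher (median -0.07). Spdef, a transcription factor of secretory cells, fell from 9.38, 9.27 and 9.33 to 8.45, 8.60 and 8.503, and Krt7, a simple epithelial keratin, from 10.15, 10.03 and 9.90 to 9.20, 8.95 and 9.25. Prap1, a secreted proline-rich acidic protein, fell from 10.24, 10.53 and 10.69 to 7.16, 8.85 and 8.98, a call lost without estrus replicate 3 (adjusted p = 0.0528 by limma).

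Of 68 genes of the respiratory chain tested none was called by limma, 15 had an unadjusted p under 0.05, 65 were negative and the median was -0.39, and with the replicate block 1 was lower. By replicate number the median was -0.89, -0.14 and -0.14, so the shift lay mostly in metestrus replicate 1. Without that array the median was -0.12. Cytosolic ribosomal protein genes, a family added after values were seen, had 0 of 54 called by limma, 0 at an unadjusted p under 0.05 and medians of -0.43, 0.03 and 0.06 by replicate number. All 104 called genes chosen by the rule had the same direction within replicate 1 as in the fit. That was fixed in advance, since no called gene overlapped between the stages.

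**Figure D5:**
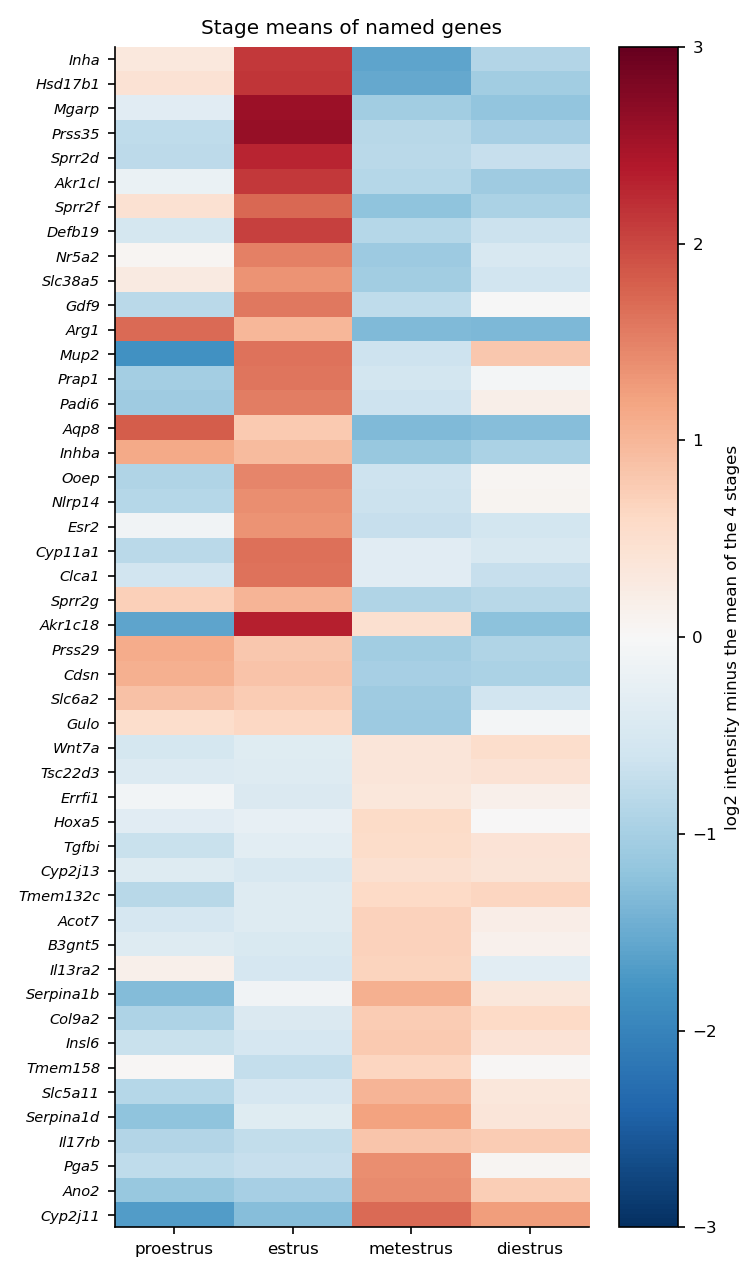
Stage means of 48 called genes (rows), as log2 intensity minus the mean of the 4 stages (colour), for the 28 largest falls and the 20 largest rises at metestrus among the genes chosen by the rule. Most of these falls have their highest mean at estrus, a smaller group that includes Arg1, Aqp8 and Inhba has it at proestrus, and the rises have diestrus means above their estrus means.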

How the data were processed

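RNA of whole oviduct was measured on 12 Illumina bead arrays, 3 for each of 4 stages. Per the labels' protocols, RNA was taken with an RNeasy kit and DNase I and amplified to biotin-labelled cRNA. The authors deposited 1 mean bead intensity per probe and array with no background subtracted, per the file headers, and beside it a detection p-value against negative control beads. A second deposited table holds intensity values that, by their minima and maxima, had the background subtracted and were quantile normalized apart for replicate 1 and for replicates 2 and 3. For the scanner software, the version and settings were not given in the sources used here.

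Deposited intensities were background corrected and quantile normalized over all 12 arrays with neqc (offset 16) and taken to log2. Of 25697 probes, 23978 carried 1 symbol and 1719 none. The 14778 probes with a detection p under 0.01 on at least 3 arrays were kept, and the probe of highest mean stood for its gene, leaving 10144 genes of 16593 named. Of the array values, 7 reached 65000 units, near the scanner ceiling. limma 3.58.1 in R 4.3.3 fitted 1 mean per stage (lmFit, eBayes, 8 residual degrees of freedom), with Benjamini-Hochberg adjustment over all genes. The number of arrays limits the precision. In simulated data with shifts of known size, the mean estimates came close to those sizes. That checks the arithmetic of the fit and not its calls.

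Deviations from the stage means of estrus and metestrus arrays of the same number correlated at 0.73, 0.63 and 0.60 over 5072 genes. Arrays of numbers 2 and 3 correlated about as much with each other, at 0.59 and 0.61. The correlations therefore set replicate 1 apart from 2 and 3, and do not show that 2 and 3 pair by number. Values with the number as a block are given beside the lists and genes whose calls they change by over 1.5 times.

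The gene lists were written with earlier results of these data known. The rule for genes to describe, not all of which are printed, took the 14 largest falls and 14 largest rises called without overlap (bounded where undetected), the 5 brightest called genes in each direction, up to 5 called members of each list by lowest p, or 2 members where none was called, and Esr1, Pgr and Ovgp1. Cell type markers were shown as such. Chosen after their values were seen were Amhr2, Bub1b, Car9, Car12, Car14, Cyp17a1, Fshr, Gldc, H2-Ea, Hmgcs1, Hsd17b2, Hsd3b1, Insig1, Nlrp5, Serpina1a, Serpina1c, Sprr2a1, Srebf2, and the genes of the additional observations. Promoter sequences are RefSeq's, build GRCm38.p6. Alternatives were other normalizations, filters, blocks, subsets of arrays and the second deposited table.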

Additional observations from a re-analysis of the deposited data

How the results depend on the processing

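Counts of called genes changed with the block, the arrays used and the table, while no called gene chosen by the rule changed direction under any of the alternatives run. The replicate block gave 847 calls (372 higher, 475 lower) and the array set as a block 966 (429 and 537). Replicates 2 and 3 alone gave 475 (167 and 308), with 227 of the 250 among them, and a fit to the estrus and metestrus arrays alone gave 98 (16 and 82). The second deposited table gave 53 (5 and 48), or 764 (332 and 432) with the replicate block. Leaving out 1 array gave 147 to 247 calls, 32 to 73 higher and 115 to 180 lower. The share of calls that were lower was 72% in the main setting, 56.1% and 55.6% with the blocks, 64.8% in replicates 2 and 3, 83.7% in the 6 arrays and 90.6% with the second table. Other backgrounds, offsets, scalings, filters and probe rules gave 213 to 291 calls.

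Of the 104 called genes that the rule chose, 30 were called in every setting that tested them, and 39 were lost in at least 1 fit without an array. Reversed directions were all of genes that were not called. The log2 difference of Esr1 was -0.019 in replicates 2 and 3 and ranged from -0.10 to 0.24 with 1 array left out. The log2 difference of Alas2, an erythroid enzyme (0.11), was -0.010 in replicates 2 and 3 and -0.019 in the second table with or without the block, and ranged from -0.19 to 0.32. The log2 difference of Ovgp1 was -0.15 in replicates 2 and 3 and -0.0595 in the second table both ways, and ranged from -0.26 to 0.22. The log2 difference of Pgr was 0.14 in the second table both ways and 0.17 within replicate 1, and ranged from -0.084 to 0.049 with 1 array left out. The log2 difference of Ptgds, a prostaglandin D synthase, was -0.045 within replicate 1. The cause of these changes was not tested. Of 1123 list medians under alternatives, 149 moved by more than the spread between replicates. The median changed sign in some alternative for 18 of 45 lists, the largest of them the neutrophil list (-0.28, or 0.04 without metestrus replicate 1). Of the called genes, 26 lower ones were undetected at metestrus and 6 higher ones at estrus, so signal over background limits their folds to bounds.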

Other observations

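Glandular kallikreins, serine proteases that estrogen and androgen regulate in mouse glands, were looked at after their values were seen. Of 9 tested Klk1-related genes, 6 were lower at metestrus, and all 9 had negative differences with a median of -1.35. The genes are near-identical, so probes may share signal. Klk1b27 was the brightest, at 11.17, 10.92 and 10.89 at estrus and 9.36, 9.75 and 9.82 at metestrus, 2.55-fold lower, with a proestrus mean of 11.13. Klk1b21 fell from 9.68, 10.05 and 9.88 to 7.81, 8.56 and 8.65. Klk1b1 fell by 1.62 ± 0.27 and Egfbp2, which binds epidermal growth factor, by 1.36 ± 0.23. Klk1b11 fell by 1.502 ± 0.28 and was lost without estrus replicate 2 or 3 (limma adjusted p 0.056 to 0.0613), and Klk1b24 fell by 0.88 ± 0.17 and was lost without estrus replicate 1 or 2 (0.063 to 0.0704). Klk1b8, Klk1 and Klk1b5 had differences of -0.54, -0.38 and -0.17 and did not pass.

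Both tested genes of the major urinary proteins, which carry pheromones, were lower. Mup2 was at 9.64, 9.49 and 9.72 at estrus and 7.09, 7.27 and 7.70 at metestrus, and Mup6 at 9.30, 9.02 and 9.10 against 7.36, 7.89 and 7.69. Their proestrus means were 6.17 and 9.67, so the genes did not share one course over the cycle.

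Among other falls seen in the data, Lipf, a gastric lipase, lay at 10.73, 10.12 and 10.19 at estrus and 8.55, 8.82 and 8.63 at metestrus, 3.21-fold lower. Ghrh, the growth hormone releasing hormone, fell from 10.87, 10.98 and 10.92 to 8.57, 9.61 and 9.82. Alpl, an alkaline phosphatase, fell by 1.51 ± 0.23, and Mrap, a partner of the corticotropin receptor, by 1.90 ± 0.21. A separate limma fit of all 14778 kept probes, adjusted over these probes, called 294, 82 higher and 212 lower. Of the 837 probes with no gene name it called 17, 2 higher and 15 lower, a share close to that over all kept probes.

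By detection alone, 48 genes were detected on all 3 estrus arrays and no metestrus array, and 17 the other way. With a detection p under 0.05 these were 43 and 13.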
